A study of Arabidopsis thaliana with 10 samples.

Results

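The genes described here were LEAFY (LFY, AT5G61850), UNUSUAL FLORAL ORGANS (UFO, AT1G30950), FD (AT4G35900) and 4 members of the FT/TFL1 family. These were FLOWERING LOCUS T (FT, AT1G65480), TWIN SISTER OF FT (TSF, AT4G20370), TERMINAL FLOWER 1 (TFL1, AT5G03840) and BROTHER OF FT AND TFL1 (BFT, AT5G62040), which makes 7 of the 27444 protein-coding genes of Arabidopsis thaliana. They were chosen by name, and every peak summit of the 9 deposited peak lists was collected from 3000 bp upstream of the start to 1000 bp downstream of the end of each gene. The lists came from seq-DAP-seq, in which tagged proteins made in a wheat germ extract were purified. These proteins were used to pull fragments out of naked, PCR-amplified genomic DNA of 2-week-old Col-0 seedlings, so no chromatin or cell type is represented. The libraries comprised 3 of SEP3-AG, a complex of the MADS-domain proteins SEPALLATA3 and AGAMOUS that can form tetramers, 2 of SEP3Δtet-AG, in which SEP3 is a splice variant without part of its tetramerisation region, and 4 of SEP3 alone. All complexes carried a FLAG tag on the SEP3 protein, and both AG complexes also carried a Myc tag on AG and were purified through FLAG and then Myc, whereas SEP3 went through FLAG only, so a difference from SEP3 cannot be told apart from this step. Each list was called against the same single input DNA sample.

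LFY is a plant-specific transcription factor that gives young meristems floral identity, and UFO is an F-box protein that acts with it on floral target genes. FT and TSF are small mobile proteins made in leaves that promote flowering at the shoot apex, where they act with the bZIP factor FD. TFL1 and BFT belong to the same protein family and delay flowering, TFL1 by keeping the inflorescence meristem from turning into a flower. SEP3 and AG act after these genes, in the specification of floral organs, and MADS-domain dimers are known to bind CArG boxes, here taken as CC, then 6 A or T, then GG.

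The sequences of the upstream sites of LFY, FD and FT and of the FT intron site are given first, because the comparison of the complexes turns on them. Each is 151 bp long, centred on the summits, read 5′ to 3′ along the gene, which lies on the plus strand in each case, and taken from the RefSeq TAIR10.1 assembly. Capitals mark CArG boxes with at most 1 mismatch on either strand. None of these windows touches an annotated exon.
LFY upstream site, chr5:24843112-24843262: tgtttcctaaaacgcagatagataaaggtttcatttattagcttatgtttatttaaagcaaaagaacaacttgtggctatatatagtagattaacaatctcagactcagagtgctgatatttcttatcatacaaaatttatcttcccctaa
FD far upstream site, SEP3-AG summits, chr4:17001757-17001907: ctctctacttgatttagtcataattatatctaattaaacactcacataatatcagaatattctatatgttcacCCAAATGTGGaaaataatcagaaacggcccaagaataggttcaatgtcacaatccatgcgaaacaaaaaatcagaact
FD far upstream site, SEP3 and SEP3Δtet-AG summits, chr4:17001939-17002089: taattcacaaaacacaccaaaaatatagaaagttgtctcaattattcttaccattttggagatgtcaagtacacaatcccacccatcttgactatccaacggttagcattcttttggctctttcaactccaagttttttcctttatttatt
FD near upstream site, chr4:17002444-17002594: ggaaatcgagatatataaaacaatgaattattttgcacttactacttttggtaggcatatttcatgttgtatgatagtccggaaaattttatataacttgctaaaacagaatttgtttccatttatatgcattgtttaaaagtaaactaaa
FT upstream site, chr1:24329403-24329553: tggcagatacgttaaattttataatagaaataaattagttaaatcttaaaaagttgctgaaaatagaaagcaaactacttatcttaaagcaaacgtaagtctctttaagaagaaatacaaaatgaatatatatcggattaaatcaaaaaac
FT intron site, chr1:24331727-24331877: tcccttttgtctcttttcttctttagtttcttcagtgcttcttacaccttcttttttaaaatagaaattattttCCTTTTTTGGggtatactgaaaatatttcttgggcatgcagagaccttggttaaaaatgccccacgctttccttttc
Of the 6 windows, only the FT intron site held a perfect box and only the SEP3-AG window of the FD far upstream site held a box with 1 mismatch. Over all consensus sites of SEP3-AG, a perfect box was present in 9.99% of windows of this length and a box with at most 1 mismatch in 59.3%, against 1.65% and 23.5% of the windows that end at a gene start. The absence of a box says only that these letters are not in the window. With 2 mismatches allowed, an alternative chosen after seeing the data, the 6 windows held 2 to 4 boxes each, where the median was 4 over the consensus sites of each complex and 2 over gene-start windows.

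The 7 regions held 41 summits, which fell into 13 sites when summits with windows of 200 bp on either side that shared at least 50% of their length were joined. Upstream sequence held 28 of the summits, introns 5, a coding exon 1, a 3′ UTR 1 and the 1000 bp past the gene end 6. By replicate, the 7 regions together held 6, 4 and 7 summits in SEP3-AG, 3 and 3 in SEP3Δtet-AG, and 2, 2, 3 and 11 in SEP3. The means were 5.67 ± 1.53 (SD, n = 3), 3.0 ± 0.0 (SD, n = 2) and 4.5 ± 4.36 (SD, n = 4), and the only pair of groups that did not overlap was SEP3-AG against SEP3Δtet-AG. SEP3 replicate 4 stood apart from its group and was the only library with a summit in the TSF and TFL1 regions. SEP3-AG minus SEP3Δtet-AG was 2.67 summits, SEP3-AG minus SEP3 was 1.17 and SEP3Δtet-AG minus SEP3 was −1.5. Without SEP3 replicate 4 the last difference changed sign, to 0.667, and SEP3-AG minus SEP3 became 3.33. Per 1000 summits of each list, a scale chosen after seeing the data, SEP3-AG went from the highest of the complexes to the lowest. The 7 regions then held 0.675, 0.602 and 0.73 summits in SEP3-AG, 0.901 and 1.29 in SEP3Δtet-AG, and 4.23, 1.63, 1.57 and 1.23 in SEP3, so every SEP3-AG library lay below every library of the other complexes. Of the 13 sites, 7 had a summit in at least 2 libraries, and 4 of the remaining 6 came from SEP3 replicate 4 alone. The regions were 4996 to 6742 bp long, so a longer region had more room for summits.

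**Figure D1:**
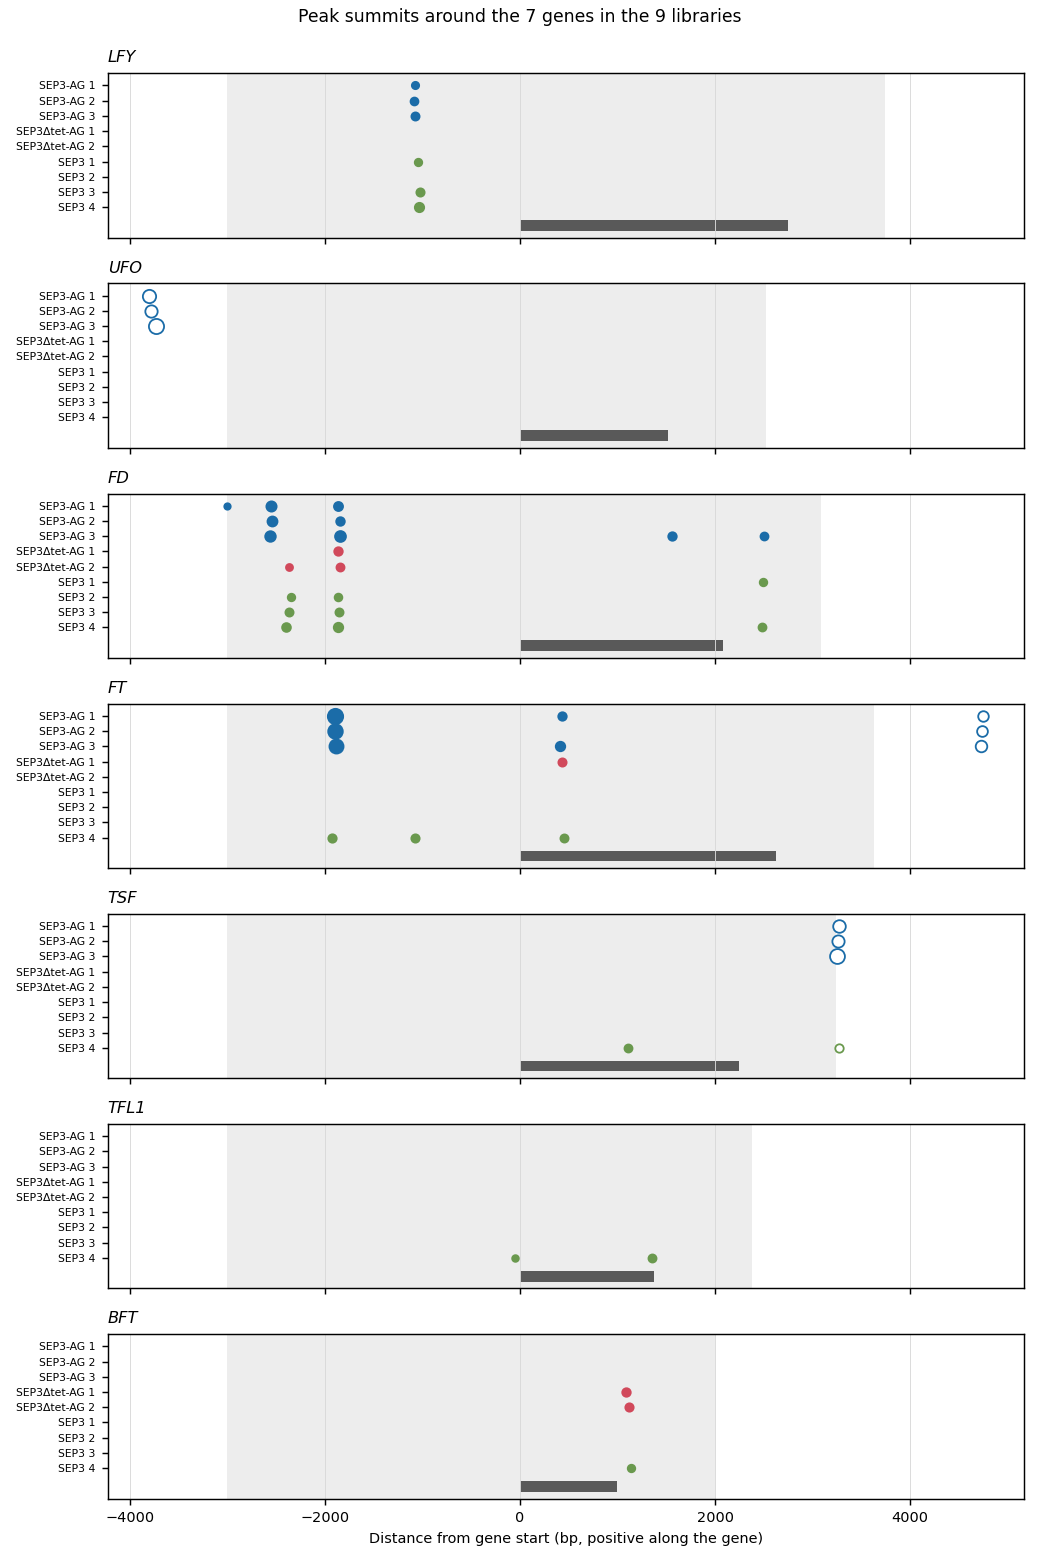
Peak summits (filled circles, blue for SEP3-AG, red for SEP3Δtet-AG, green for SEP3) by distance from the gene start in bp, for the 7 genes and the 9 libraries, with the circle's area growing with fold enrichment. The grey band is the region searched, the dark bar the gene, and open circles are summits of the sites outside the band described for UFO, TSF and FT. Other summits outside the band are not drawn, among them 1 of SEP3 replicate 4 at 485 bp beyond the TFL1 band. LFY, FD and FT carried summits of several libraries, UFO carried none inside the band, and TSF and TFL1 carried summits of SEP3 replicate 4 only.

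Over the genome, a SEP3-AG list held 6643 to 9588 summits, a SEP3Δtet-AG list 2329 or 3331, and the SEP3 lists 473, 1225, 1915 and 8916. Library depth relative to the input, recovered from the peak values, ranged from 0.87 to 1.25 in the SEP3-AG libraries, was 1.29 and 2.15 in those of SEP3Δtet-AG, and ranged from 1.57 to 2.3 in those of SEP3, and the deepest SEP3 library, replicate 1, gave the fewest summits. The list of SEP3 replicate 4 also carried another library prefix in its peak names than the other 8 lists. The part of list length in the counts for SEP3 replicate 4 was not tested.

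Any summit at all was present at 3, 3 and 3 of the 7 genes in the SEP3-AG libraries, where 38.3%, 30.3% and 39.6% of all protein-coding genes had one. It was present at 3 and 2 of the 7 in the SEP3Δtet-AG libraries (16.7% and 11.9% of all genes). In SEP3 replicates 1 to 4 it was present at 2, 1, 2 and 6 of the 7 (2.47%, 6.61%, 9.19% and 36.0%). A consensus site, with a summit in at least 2 libraries of a complex, was found at 3 of the 7 genes for SEP3-AG (LFY, FD and FT), where 35.8% of all protein-coding genes had one. SEP3Δtet-AG had a consensus site at 2 of the 7 genes, FD and BFT, against 11.3% of all genes. SEP3 had one at 2 of the 7, LFY and FD, against 11.1%. FD was therefore shared by all 3 complexes, LFY by SEP3-AG and SEP3, while only SEP3-AG had a consensus site at FT and only SEP3Δtet-AG had one at BFT. With 7 genes, these counts are a description. UFO, TSF and TFL1 had no consensus site of any complex inside their regions.

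**Figure D2:**
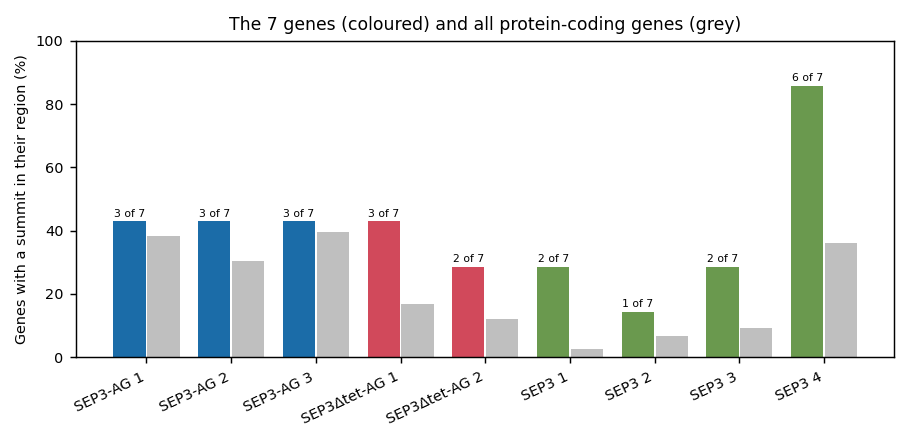
Percent of the 7 genes (coloured bars, with the number of genes) and of all 27444 protein-coding genes (grey bars) with at least 1 summit in their region, by library. The SEP3-AG libraries had 3 of 7 genes against 30.3% to 39.6% of all genes, and SEP3 replicate 4 had 6 of 7 against 36.0%.

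FT carried the strongest site among the 7 regions. At the FT upstream site, 1885 to 1896 bp before the gene start, fold enrichment over the input was 12.02, 10.9 and 10.16 in SEP3-AG replicates 1, 2 and 3 (11.0 ± 0.936, SD, n = 3). The summits of the 3 libraries lay within 11 bp of each other. Ranked by −log10 p within each list, they stood in the top 5.02%, 7.81% and 10.1%. They rested on 464, 346 and 230 fragments, with exact Poisson 95% intervals of 423 to 508, 310 to 384 and 201 to 262, which cover counting error only. Scaled to the depth of the input, that is 372, 304 and 264 fragments (313 ± 54.6, SD, n = 3). All 3 SEP3-AG libraries were alike in placing this site near the top of their lists.

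Neither SEP3Δtet-AG list had a summit at the FT upstream site. At the local background of this site, 59 and 60 fragments at input depth would have reached the lowest −log10 p present in the lists of replicates 1 and 2, well under the 264 to 372 fragments of SEP3-AG. A summit missing from a list therefore means a site below that number, and does not tell weak binding from none. Of the 641 sites in the top 10.1% of all 3 SEP3-AG lists, 108, or 16.8%, had no SEP3Δtet-AG summit. That limit is the rank of the FT upstream site in replicate 3, so some of the 641 can rank below it in replicates 1 and 2. Among SEP3 libraries only replicate 4 had a summit here, at 3.61-fold and 71.3 fragments at input depth. Replicates 1 to 3 of SEP3 had none, as at 37.8% of the same 641 sites.

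The window at the FT upstream site held no CArG box with at most 1 mismatch. Among the 819 top-ranked of the 8199 SEP3-AG consensus sites, 25.5% of windows likewise held none, and among all SEP3-AG consensus sites 40.7%.

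The FT intron site lay 414 to 455 bp into the gene, in intron 1 of 3, and its summits came from SEP3-AG replicates 1 and 3, SEP3Δtet-AG replicate 1 and SEP3 replicate 4. Fold enrichment was 3.68 and 4.62 in SEP3-AG, 3.46 in SEP3Δtet-AG and 3.39 in SEP3. Each complex thus gave a summit of similar fold enrichment, but only SEP3-AG gave it in more than 1 library. The perfect box CCTTTTTTGG at 428 to 437 bp from the gene start lay 2 to 22 bp from these summits. A further FT summit, 1074 bp upstream, was seen in SEP3 replicate 4 alone, at 3.53-fold.

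Over the whole FT region, SEP3-AG had 2, 1 and 2 summits, SEP3Δtet-AG 1 and 0, and SEP3 0, 0, 0 and 3. The groups overlapped in each comparison. SEP3-AG minus SEP3Δtet-AG was 1.17 summits (exact permutation test over the libraries, two-sided, p = 0.3, adjusted p = 0.605 over all genes), and SEP3-AG minus SEP3 was 0.917 (exact p = 0.4, adjusted p = 0.682). These counts take each summit as 1 whatever its height.

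**Figure D3:**
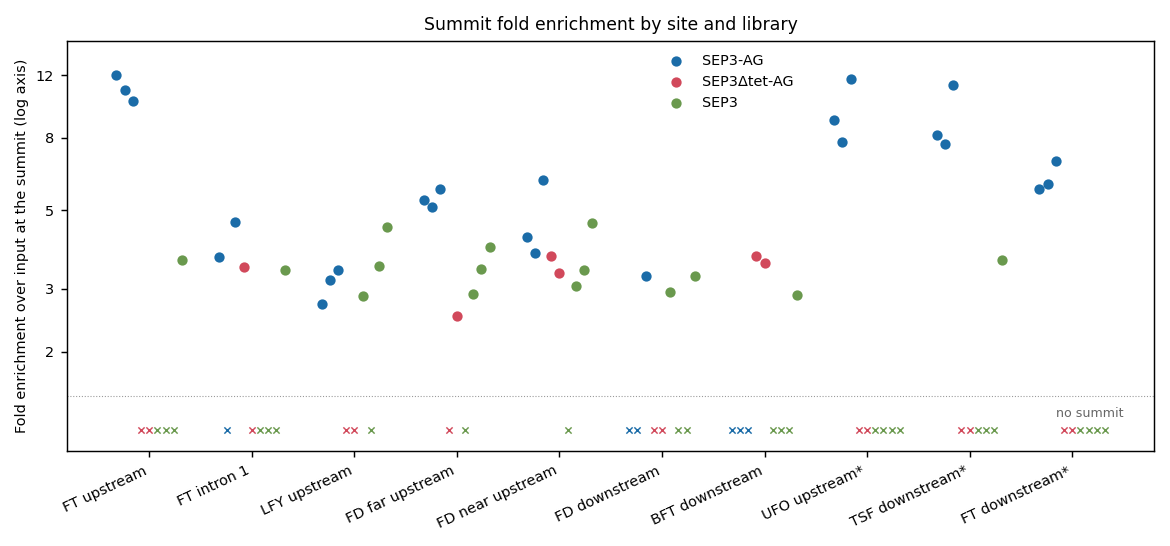
Fold enrichment over input at the summit (log axis) for the 7 sites with summits in at least 2 libraries and, marked *, for 3 sites just outside the regions, by library in order of replicate (blue SEP3-AG, red SEP3Δtet-AG, green SEP3). Crosses under the dotted line are libraries with no summit collected at that site. The FT upstream site reached 10.16 to 12.02 in SEP3-AG, while the BFT downstream site had no SEP3-AG summit.

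LFY carried a single site, 1029 to 1084 bp before its start, and it was weak. Fold enrichment was 2.72, 3.19 and 3.4 in SEP3-AG replicates 1 to 3, which placed the site low in their lists, at 95.3%, 86.1% and 91.2% from the top. In SEP3 replicates 1, 3 and 4 it was 2.87, 3.48 and 4.47, at 91.8%, 41.8% and 16.5% from the top, and replicate 2 had no summit. The site was thus near the bottom of the SEP3-AG lists and in the upper part of 1 SEP3 list. SEP3-AG summits lay at 1072 to 1084 bp upstream and SEP3 summits at 1029 to 1050 bp, so the positions did not overlap. Their means were 37.3 bp apart, a distance reached at 15.5% of the 1736 sites with at least 2 libraries of each complex.

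Neither SEP3Δtet-AG library had a summit at LFY. Fragments at input depth were 78.5, 83.5 and 70.1 in SEP3-AG, and 57 and 58 would have reached the lowest −log10 p of the SEP3Δtet-AG lists, a narrow margin. Summits per library were 1, 1 and 1 in SEP3-AG against 0 and 0 in SEP3Δtet-AG, so the groups did not overlap, as was so in this direction for 41.4% of the 11978 genes with a summit in either complex. The exact permutation test gave p = 0.1, the smallest that 3 against 2 libraries allow, and adjusted p = 0.254. Of the 1736 sites bound by SEP3-AG and SEP3, 20.8% had no SEP3Δtet-AG summit. The site lies between LFY and the divergent gene GUT1, 1044 bp upstream of the start of GUT1, and the lists do not assign it to either gene.

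FD, the bZIP partner of FT, carried 5 sites, and its near upstream site was the one shared by most libraries. Summits 1841 to 1869 bp before the gene start came from 8 of the 9 libraries, all but SEP3 replicate 1, and lay within 28 bp. Fold enrichment was 4.2, 3.78 and 6.08 in SEP3-AG, 3.71 and 3.33 in SEP3Δtet-AG, and 3.05, 3.39 and 4.59 in SEP3 replicates 2 to 4. Within the lists the site ranked in the middle for both AG complexes, at 37.3% to 60.3% from the top, and at 62.7%, 20.3% and 4.62% from the top in SEP3 replicates 2, 3 and 4. No CArG box with at most 1 mismatch was found in the window.

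At this site the fragments could be compared between SEP3-AG and SEP3Δtet-AG, because every library of both had a summit. Fragments at input depth were 155, 127 and 152 in SEP3-AG and 118 and 95.4 in SEP3Δtet-AG, so the groups did not overlap, as at 82.6% of the 1820 sites with a summit in every library of both complexes. The geometric means were 144.1 and 106.0, and the difference was 0.44 on the log2 scale (SD of log2 values 0.15 for n = 3 and 0.21 for n = 2). The exact permutation test gave p = 0.1, the smallest possible, and adjusted p = 0.134 over all shared sites. Fragment length, which can also raise the number of fragments over a summit, was not corrected for. Over the same 1820 sites the median difference was 0.856, and 96.7% were higher in SEP3-AG, so FD lay below the median. By rank within the lists the site differed by 0.03 percentage points between the complexes (exact p = 1.0).

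The far upstream FD site was split by complex. The SEP3-AG summits stood at 2539 to 2565 bp before the gene start, with fold enrichment 5.35, 5.12 and 5.74. The summits of SEP3 replicates 2, 3 and 4 stood at 2352 to 2395 bp, with fold enrichment 2.9, 3.41 and 3.94, and that of SEP3Δtet-AG replicate 2 at 2371 bp, with 2.51. No SEP3-AG summit fell in the nearer position and no other complex had one in the farther. The mean positions of SEP3-AG and SEP3 were 181 bp apart, a distance reached at 4 of the 1736 joined sites with at least 2 libraries of each (0.23%). The median was 12.7 bp and the 90th percentile 48.4 bp. Only summits up to 200 bp from the best-ranked one were joined, so the joining itself keeps large distances out. The share therefore does not say how often the complexes have summits at separate nearby places. With an overlap of at least 80% required, both positions count as separate sites.

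The box with 1 mismatch, CCAAATGTGG, lay at 2543 to 2552 bp upstream, 2 to 17 bp from the SEP3-AG summits. The peak regions of some libraries, among them SEP3-AG replicates 1 and 2 and SEP3 replicate 4, reached across both positions. The farther position also lies within the region of the neighbouring gene LARP1c, downstream of its end.

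**Figure D4:**
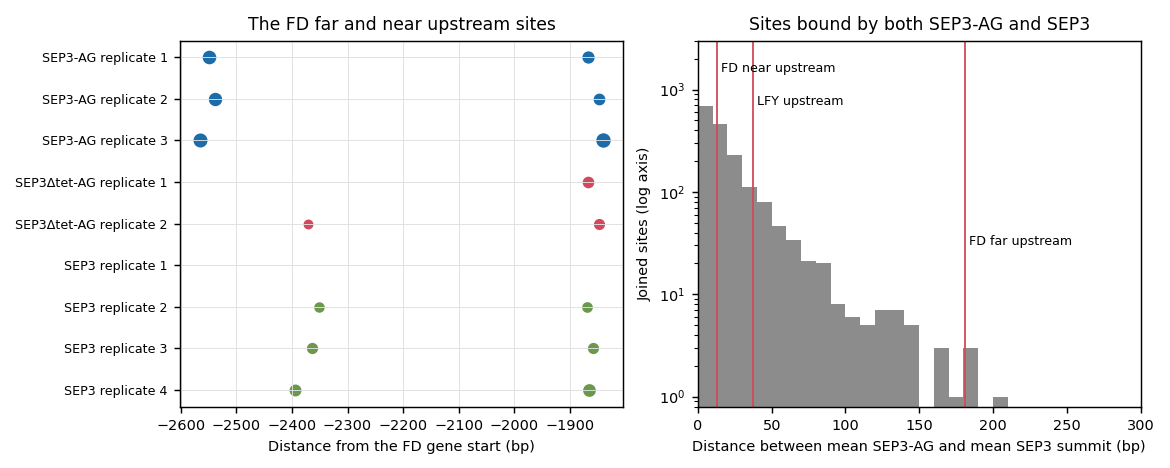
Left, summits of the far and near upstream sites of FD by library, as distance from the gene start in bp (circle area grows with fold enrichment). Right, distance in bp between the mean SEP3-AG and the mean SEP3 summit at 1736 joined sites with summits in at least 2 libraries of each complex (counts on a log axis), with red lines for the sites of LFY (37.3 bp) and FD (12.7 and 181 bp). Summits too far apart to be joined are not in the distribution.

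The other FD sites were seen in fewer libraries. A downstream site 400 to 419 bp past the gene end had summits in SEP3-AG replicate 3 (3.27-fold) and in SEP3 replicates 1 and 4 (2.94-fold and 3.27-fold). It held 4 boxes with 1 mismatch, CCAAAAGTGG at 2 places, GCTAATATGG and CATTATATGG, where 16.8% of SEP3-AG windows and 21.5% of SEP3 windows held at least 2 boxes. This site falls inside the oppositely oriented gene AT4G35905. SEP3-AG replicate 3 also had a summit in a coding exon at 1563 bp (3.7-fold), and SEP3-AG replicate 1 had one exactly at the upstream edge of the region, at 3000 bp (2.11-fold). In all, FD had 3, 2 and 4 summits in SEP3-AG, 1 and 2 in SEP3Δtet-AG, and 1, 2, 2 and 3 in SEP3, which overlapped. The difference was 1.5 summits for SEP3-AG minus SEP3Δtet-AG (exact p = 0.3, adjusted p = 0.605) and 1.0 for SEP3-AG minus SEP3 (exact p = 0.286, adjusted p = 0.607).

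BFT, a TFL1-like member, was the only one of the 7 with SEP3Δtet-AG summits and no SEP3-AG summit in its region. Its site lay 90 to 143 bp past the gene end, with fold enrichment of 3.71 and 3.55 in SEP3Δtet-AG replicates 1 and 2 and 2.89 in SEP3 replicate 4. Fragments at input depth were 93.7 and 88.5 in SEP3Δtet-AG, in the middle of those lists, and 48.1 in SEP3 replicate 4. At the same background 50, 50 and 51.7 fragments would have reached the lowest −log10 p of the SEP3-AG lists.

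Summits per library were 0, 0 and 0 in SEP3-AG and 1 and 1 in SEP3Δtet-AG. The groups did not overlap, with SEP3Δtet-AG higher, as for 106 of 11978 genes, 0.885%. The exact permutation test gave p = 0.1, again the smallest possible, and adjusted p = 0.254. This lack of SEP3-AG summits depends on where the region ends. Widened to 6000 bp upstream and 5000 bp downstream, it held 1, 1 and 1 summits in SEP3-AG and 2 and 1 in SEP3Δtet-AG, which overlapped. A summit of SEP3-AG replicate 1 lay 2373 bp beyond the upstream edge, at 4.83-fold. Among the 2173 sites found in both SEP3Δtet-AG libraries, 128 (5.89%) had no SEP3-AG summit. The box CTATAATTGG, with 1 mismatch, lay 12 to 32 bp from the summits. The site lies inside the convergent gene OXA1 as well, and the lists do not assign it to either gene.

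UFO had no summit in its region in any of the 9 libraries. The nearest site, 727 bp beyond the upstream edge, had summits of the SEP3-AG libraries, at 3799, 3785 and 3727 bp before the gene start. Its fold enrichment was 9.0, 7.78 and 11.71, which is top 20.5%, 26.2% and 12.8% of the lists. SEP3 replicate 4 also had 1 summit farther upstream, within 6000 bp of the gene start, and whether it belongs to the same site was not examined. The lack of a UFO site thus depends on where the region ends. For TSF the edge mattered more, since a SEP3-AG site of 8.14, 7.67 and 11.29-fold lay 9 to 34 bp beyond it, 1009 to 1034 bp past the gene end, with a summit of SEP3 replicate 4 at 3.62-fold. Inside the TSF region the single summit, of SEP3 replicate 4, was in intron 2 at 3.29-fold. The counts above keep the edge as set.

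TFL1 showed no summit of either AG complex. SEP3 replicate 4 had 2 in its region, at 50 bp before the gene start (2.27-fold, 98.4% from the top of the list) and in the 3′ UTR (3.32-fold). FT had a further SEP3-AG site 2104 to 2117 bp past the gene end, outside its region, at 5.72, 5.91 and 6.86-fold, with no summit of another complex. With regions widened to 6000 bp upstream and 5000 bp downstream, SEP3-AG had a consensus site at 6 of the 7 genes, against 60.3% of all genes.

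Over the 7 genes, SEP3-AG and SEP3Δtet-AG together had summits at 4, and SEP3-AG was higher at 3 and lower at 1, with a median difference of 1.08 summits. Over all 11978 genes with a summit in either complex the median was 0.667, with 80.9% higher and 5.92% lower in SEP3-AG. Against SEP3, 6 of the 7 genes had summits, 3 higher and 3 lower in SEP3-AG, with a median of 0.0 against 0.583 over 14288 genes. Of those 14288 genes, 76.7% were higher and 21.1% lower in SEP3-AG. The 3 lower genes, TSF, TFL1 and BFT, had SEP3 summits in replicate 4 only. Without that library the difference from SEP3-AG was 0 at each of them. SEP3Δtet-AG minus SEP3 was 0.75 at BFT (exact p = 0.4), −0.75 at LFY (exact p = 0.4), and between −0.5 and −0.25 at FD, FT, TSF and TFL1, each with adjusted p = 1.0 in the exact test, with a median of −0.375 against −0.25 over 10625 genes. Of those 10625 genes, 32.7% were higher and 60.1% lower in SEP3Δtet-AG, beside 1 higher and 5 lower here. The libraries of no gene of the 7 were fully apart in either comparison with SEP3. Over all genes they were apart for 21.0% with SEP3-AG above SEP3, 0.042% with it below, 2.84% with SEP3Δtet-AG above SEP3 and 0.264% with it below. In the comparisons with SEP3Δtet-AG the smallest p possible was 0.1 against SEP3-AG and 0.0667 against SEP3, and it was 0.0286 for SEP3-AG against SEP3, so only the last could pass 0.05. No gene of the 7 passed an adjusted p of 0.05 in any comparison, and neither did any of the genes tested. At an unadjusted p of 0.05 the count over all genes was 2733 for SEP3-AG against SEP3 and 0 for each comparison with SEP3Δtet-AG, and the comparisons share libraries.

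The same pathways were read through a list of 19 further genes, of which 12 (63.2%) had a SEP3-AG consensus site, 7 (36.8%) a SEP3Δtet-AG site and 9 (47.4%) a SEP3 site, beside 35.8%, 11.3% and 11.1% of all genes. The list was chosen with earlier results of these data known, so these shares are a description. The other FT/TFL1 relatives were bound by every complex: the TFL1 homologue ATC had 2 consensus sites for each, and MFT had 1 for each. Among known targets of LFY, APETALA1 (AP1), which confers floral meristem identity, had 2 consensus sites in SEP3-AG, 1 in SEP3Δtet-AG and 3 in SEP3 alone. APETALA3 (AP3), a petal and stamen identity gene, had 1 summit in all 9 libraries, and RAX1 had 2, 1 and 1 sites in the same order. CAL, the close relative of AP1, had a consensus site for SEP3-AG only. LMI1 and LMI2, also listed as LFY targets, had no summit in any library.

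Upstream of FT, the clock-associated gene GI had 3, 2 and 1 consensus sites in the same order of complexes, while CO, the direct activator of FT, had no summit in any library. The FT repressor TEM1 had a site for SEP3-AG and for SEP3, and TEM2 had 1 for each complex. The FD paralogue FDP and the homeodomain gene BLR had a consensus site for SEP3-AG only, and the branching regulator BRC1 had 1 for SEP3-AG and 2 for SEP3. FTIP1, PNF, MP, ASK1, LMI1 and LMI2 had no consensus site.

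Likeness of pattern was measured as the Euclidean distance between the within-list ranks of the best summit over the 9 libraries, with 0 for no summit, and it is a description. The nearest genes to FT were AT2G04865 and AT2G04870 at 8.62 each, which share the same peaks. Those nearest to BFT were ATLIG4 (12.8) and AT5G57150 (13.3), those nearest to LFY were MEE12 (17.1) and RHA1B (17.8), and those nearest to FD were BIP1 (30.9) and SQP2 (34.4). MEE12 and RHA1B had summits in 3 libraries each, SEP3-AG replicate 3 and SEP3 replicates 3 and 4. LFY also had summits in SEP3-AG replicates 1 and 2 and SEP3 replicate 1, low in those lists and so close to the 0 given for no summit. Libraries in which neither gene has a summit add nothing to the distance, so distances are not comparable between members, which had summits in 5 (FT), 3 (BFT), 6 (LFY) and 9 (FD) libraries.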

How the data were processed

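The authors trimmed the reads, aligned these to the TAIR10 nuclear genome with Bowtie2, kept uniquely aligned reads and removed duplicates with SAMtools. MACS2 was run by the authors for every library separately, with the 1 input as control (q threshold 0.0001). The deposited lists hold fold enrichment, a ratio over the local input background, and −log10 of the p-value and the q-value at each summit. The score column deposited beside them was left out. The 7 genes, the list of 19 genes and the tests were chosen with earlier results of these data known. The rule named the 7 genes, those of the 19 with a consensus site, and the 2 nearest genes in pattern. The 7 of the 19 without a consensus site are named as well, outside the rule.

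Gene positions came from the RefSeq TAIR10.1 annotation, and summits were counted 1-based. Fragments at a summit were recovered from fold enrichment and p together, since pileups are whole multiples of 1 scale factor per library (100.0% of the weakest 300 summits of each list within 0.005 fragments). Pileup grows with fragment length, and the lowest local background was 11.6 to 13.3 in SEP3 against 15.2 to 24.9 in the AG complexes, so fragments of SEP3 are given as values and were not tested against the AG complexes at the sites described. The AG complexes were tested against each other without a correction for fragment length. Summits per gene and log2 fragments at shared sites were compared by exact permutation of the libraries, two-sided, with Benjamini-Hochberg adjustment over all genes or sites. The replicates are separate libraries. The paper states that the protein reactions of the AG complexes were done in replicate, without linking these to single libraries. No source used here says that SEP3 alone or the DNA came from separate preparations, so p-values measure the spread between libraries. Numpy 2.4.6 and scipy 1.17.1 were used in Python 3.11.15, and procedures were tested on simulated data.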

Additional observations from a re-analysis of the deposited data

Results flagged for a closer look

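In the SEP3 group of 4 libraries, 6 of the 8 counts examined had a library far from the others by Dixon's ratio. The ratio flags about 1 in 20 groups by chance for continuous values, but in counts this small any library that differs from 3 tied ones is flagged, so that rate does not hold here. Replicate 4 was the high one in 5 of them, with 11 summits over the 7 regions together, 3 in the FT region, 1 in the TSF region, 2 in the TFL1 region and 1 in the BFT region. The remaining one was the LFY region, where replicate 2 had 0 summits and the other 3 libraries had 1 each. The counts come from the same lists and are not independent. Of the 8916 summits of SEP3 replicate 4, 37.5% had no summit of another library in the same site.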

How the results depend on the processing

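The count of genes with a consensus site, 3, 2 and 2 of 7 for SEP3-AG, SEP3Δtet-AG and SEP3, moved with the region searched, the length of the lists and, for SEP3, the number of libraries required. From 1000 bp upstream to the gene end it was 1, 0 and 0 (20.4%, 5.99% and 5.75% of all genes), and in the wider region it became 6 for SEP3-AG. With the 473 best summits of every list it was 0, 0 and 1. For SEP3 it was 6 with a summit in any library and 0 with a summit in every library. Leaving out 1 library gave 3 in each case for SEP3-AG and 2 in each case for SEP3, and was not possible for SEP3Δtet-AG, which has 2 libraries. The summed difference of SEP3-AG minus SEP3Δtet-AG (2.67) was 0.5 in the narrower region, 7 in the wider one and 0.333 with the best 473 summits, and 2 to 3.5 with 1 library left out. SEP3-AG minus SEP3 (1.17) was 0 in the narrower region, 3.75 in the wider one, −0.667 with the best 473 summits and 0.333 to 3.33 with 1 library left out. SEP3Δtet-AG minus SEP3 (−1.5) was −0.5 in the narrower region and −3.25 in the wider one, and ranged from −2.33 to 0.667 with 1 library left out. At a −log10 q of at least 10 these last differences were 2.08 and −0.75. The cause was not tested.

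Single genes changed sign in 9 of 194 alternatives, none with an adjusted p under 0.195. For SEP3-AG minus SEP3 these were TSF in the wider region (0.583) and with any base of the peak region counted (0.25), BFT in the wider region (0.5), and LFY (−0.25) and FD (−0.75) with the best 473 summits. For SEP3Δtet-AG minus SEP3 they were FT in the narrower region (0.25), without SEP3Δtet-AG replicate 2 (0.25), without SEP3 replicate 4 (0.5) and with a replicate block (0.5). Correlations of same-numbered libraries ran from −0.24 to 0.12 and those of differently numbered ones from −0.2 to 0.24. The SEP3Δtet-AG libraries gave values of equal size and opposite sign. These correlations therefore cannot decide whether the replicate numbers pair the libraries. With the numbers as a block, the summed differences were 2, 3.33 and 1, so SEP3Δtet-AG minus SEP3 changed sign, and the FD near upstream site gave 0.41 on the log2 scale. That site differed by 0.29 to 0.59 with 1 library left out. By fold enrichment it differed by 0.39 on the log2 scale (exact p = 0.2, adjusted p = 0.255), and by rank within the lists by 0.03 percentage points (exact p = 1.0, adjusted p = 1.0).

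Peak lists hold no value where no summit was called, so depth limits what a missing summit says. The weakest summits held 33.4 to 51.2 fragments at input depth.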
